A study of Homo sapiens with 8 samples.

Results

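The TLE genes and the TLE3 locus accounted for 48 of the 15412 PML::RARA peaks in induced U937-PR9 cells. They were chosen by 3 criteria. A peak was included when it carried the symbol TLE1, TLE2, TLE3, TLE4, AES or TLE5, when it carried no gene symbol and its centre lay within 50 kb of such a peak, or when it started on chromosome 15 between 70000001 and 71000000 (hg19). Of the 6 symbols only TLE3 and TLE4 occurred in the list, each on 1 peak. The unlabelled neighbours were 1 peak near TLE4 and 2 near TLE3, and the latter belong to the window of 1 Mb, which held 46 peaks, 45 of them without a symbol. This window was selected because it held more unlabelled peaks than any other of its size, so its number of peaks, their spacing and their heights are given as a description and were not tested.

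The peaks come from Cut&Run. There, nuclei are incubated with an antibody and then with a nuclease fused to protein A, which cuts beside the bound protein so that the fragments diffuse out and can be sequenced. The cells, U937-PR9, are a myeloid line carrying a zinc-inducible transgene for PML::RARA, the fusion of the nuclear body protein PML with the retinoic acid receptor alpha that defines acute promyelocytic leukemia. Cells were given 100 μM ZnSO4 or sterile water for 5 h, and an antibody against the fusion (anti-PML-RARA) or one against RARA (anti-RARA) was applied, giving 4 groups of 2 replicates and 8 libraries. The list described here is that of the anti-PML-RARA antibody in zinc-treated cells. The peaks of the other groups were not analysed here, and zinc and the fusion cannot be told apart within this list. For each peak it gives a position, a value read here as the total signal summed over the bases, and a value read as the largest signal. The latter is called the height. There is 1 value per peak and none per replicate, the sequencing depth is unknown, and no spread between replicates could be given.

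TLE proteins are the mammalian counterparts of the Drosophila corepressor Groucho. They do not bind DNA themselves and are brought to genes by transcription factors such as the RUNX, HES and TCF/LEF proteins, where they oligomerise and recruit histone deacetylases. TLE1, TLE2, TLE3 and TLE4 are full-length corepressors, while TLE5, formerly AES, is a short family member that lacks the WD-repeat domain and can antagonise the others. TLE1 and TLE4 lie in a region of chromosome 9 that is often deleted in acute myeloid leukemia with the RUNX1 fusion RUNX1::RUNX1T1.

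To show what lay beneath the peaks, 151 bases (hg19, plus strand) are given around the apex, the position of the largest signal, of the 4 highest peaks of the chromosome 15 window. None of these printed stretches overlapped an annotated exon. Capitals mark matches to short words of transcription factor motifs that were searched on both strands. The words were GGAAGT for ETS factors, TGTGGT for RUNX, AGGTCA or GGGTCA for retinoid receptors, TGANTCA for AP-1, TTGCNNAA for C/EBP, GATAAG for GATA factors and GGGCGG for SP factors, and ACTTCC and TGACCT are reverse complements of an ETS and a retinoid receptor word.
chr15:70785240-70785390, height 72: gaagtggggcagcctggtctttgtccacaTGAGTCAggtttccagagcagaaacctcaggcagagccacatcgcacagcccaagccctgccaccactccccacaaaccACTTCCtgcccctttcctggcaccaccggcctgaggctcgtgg
chr15:70051417-70051567, height 68: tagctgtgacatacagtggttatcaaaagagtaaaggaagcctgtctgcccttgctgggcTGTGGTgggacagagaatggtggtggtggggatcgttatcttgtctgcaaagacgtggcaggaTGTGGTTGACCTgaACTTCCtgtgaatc
chr15:70740384-70740534, height 62: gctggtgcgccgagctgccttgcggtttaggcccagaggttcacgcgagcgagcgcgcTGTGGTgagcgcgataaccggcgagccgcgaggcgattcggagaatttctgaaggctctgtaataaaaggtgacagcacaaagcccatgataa
chr15:70755555-70755705, height 62: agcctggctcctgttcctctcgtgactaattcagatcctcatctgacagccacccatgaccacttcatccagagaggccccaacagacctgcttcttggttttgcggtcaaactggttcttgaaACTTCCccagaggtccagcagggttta
The peak of height 72 had an AP-1 word starting at base 30 and an ETS word at base 109. That of height 68 had RUNX words at bases 61 and 124, a retinoid receptor word at 130 and an ETS word at 138. In the latter the second RUNX word and the retinoid receptor word stood directly side by side. The remaining pair had a single match each, a RUNX word at base 59 in the first and an ETS word at base 125 in the second.

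At the genes themselves, 150 bases directly before the annotated 5′ end are given on the strand of the gene for TLE3 and TLE4, which had a peak there, and for TLE1, which had none.
TLE3, chr15:70390516-70390665, minus strand: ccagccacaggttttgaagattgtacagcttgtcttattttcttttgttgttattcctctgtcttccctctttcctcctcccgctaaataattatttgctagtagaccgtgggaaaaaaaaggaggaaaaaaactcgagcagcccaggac
TLE4, chr9:82186538-82186687, plus strand: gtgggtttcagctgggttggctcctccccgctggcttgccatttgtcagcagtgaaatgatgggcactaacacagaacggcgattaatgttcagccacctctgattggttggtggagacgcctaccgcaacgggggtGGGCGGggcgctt
TLE1, chr9:84304463-84304612, minus strand: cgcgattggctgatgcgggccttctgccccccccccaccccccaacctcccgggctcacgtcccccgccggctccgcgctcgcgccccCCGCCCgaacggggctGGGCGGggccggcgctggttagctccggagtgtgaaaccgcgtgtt
The GC content was 42% before TLE3, 58.7% before TLE4 and 76.7% before TLE1. TLE4 had an SP word at base 138 and TLE1 had SP words at bases 89 and 105, whereas these 150 bases of TLE3 held none of the words. In the RefSeq promoter table (GRCh38.p14), which gives 250 bases before to 50 after a start, 10 entries matched 5 TLE genes. An SP word was found in 8 of the 10, beside 45.0% of all 35116 entries, and the retinoid receptor word in 2, both of TLE5, beside 25.6%. The entries without an SP word were of TLE3, which differed between its starts. Its entries had GC contents of 54.3, 66.3 and 50.7%, with no word in the first, an SP word in the second and a RUNX word in the third.

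TLE3 carried 1 of the 5 widest peaks of the list. TLE3 (ENSG00000140332) occupies 70340129 to 70390515 on the minus strand of chromosome 15 (50.4 kb). Its labelled peak extended from 70387861 to 70394441, a width of 6581 bp, which ranked 5 among all 15412 peaks. The height was 40, above 86.4% of the list, and the total signal was 65305, which ranked 20. The position of the peak relative to the rest was thus set by its width, since the mean signal per base of 9.92 exceeded only 63.3% of the list. The apex, from 70390221 to 70390223, lay in an exon of TLE3, 5 bp downstream of the nearest annotated TLE3 start and 293 bp from the 5′ end of the gene. The peak spanned 16 of the 22 annotated TLE3 start sites, with 2655 bp inside the gene and 3926 bp before it. No other apex fell within the TLE3 gene.

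The TLE4 promoter peak was about as high as that of TLE3 but narrower. TLE4 (ENSG00000106829) occupies 82186688 to 82341797 on the plus strand of chromosome 9 (155.1 kb). Its labelled peak, from 82185797 to 82187365, was 1569 bp wide with a height of 42, above 85.5% and 88.8% of the list. The total signal was 18338 and the mean signal per base 11.7. The apex lay in an exon of TLE4, 71 bp upstream of the nearest TLE4 start, and 3 of 29 annotated start sites fell inside the peak. The bases around both apexes were rich in CpG, with 25 CpG in 401 bp at TLE4 and 33 at TLE3, beside a median of 33 at the labelled peaks of the list and 7 at the unlabelled ones.

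Unlike TLE3, TLE4 had further peaks inside the gene. A peak from 82198659 to 82199243, 3.8 kb downstream of the nearest TLE4 start, had a height of 21 and lay in an intron. Another intronic peak, from 82266128 to 82266649, reached 31. The first was counted among the members because its centre lay 12370 bp from that of the labelled peak, and the second was the nearest peak beyond the limit, at 79807 bp. On the TLE3 side the limit fell between a peak of height 31 at 43395 bp and a peak of height 51 at 53418 bp, but both belong to the window.

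TLE1, TLE2 and TLE5 had no peak under their own symbol. TLE1 (ENSG00000196781, chromosome 9, 84198598 to 84304462, minus strand) had no peak in the gene, within 100 kb of it or within 600 kb on either side of its 5′ end. The nearest peak of the list, from 82498083 to 82498345 with a height of 17, was 1730240 bp from the nearest TLE1 start. TLE2 (ENSG00000065717, chromosome 19, 2997637 to 3047633, minus strand) held 1 unlabelled peak in an intron, from 3034747 to 3036680. This peak was 1934 bp wide, above 92.3% of the list, had a height of 33, and its apex lay 6169 bp upstream of the nearest TLE2 start and 11844 bp from the 5′ end. TLE5 (ENSG00000104964, chromosome 19, 3052908 to 3063105, minus strand) is the neighbour of TLE2 and shared this intronic peak as the only one within 50 kb, 20405 bp from the nearest TLE5 start. Neither of its names, AES or TLE5, occurred in the list. A missing symbol says only that no reproducible peak was labelled with it. The noncanonical paralog TLE6, directly beside TLE2, had a labelled peak from 2977027 to 2978204 with a height of 30 and its apex 14 bp from the TLE6 start.

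Counted within 50 kb of the gene, TLE3 had 4 peaks, TLE2 and TLE4 had 3 each, TLE5 had 1 and TLE1 had 0. The median of 20098 protein-coding genes was 1 peak (quartiles 0 and 3), and 32.5% of them had none. TLE3 exceeded 77.1% of these genes and TLE2 and TLE4 67.3%. By their own symbol, 2 of the 5 genes had a peak, beside 30.0% of all protein-coding genes. The count near the genes therefore was similar for TLE2, TLE3 and TLE4, although the stretches counted differed in length with the gene. Per 100 kb there were 2.66 peaks at TLE3, 2.00 at TLE2 and 1.18 at TLE4. Those counted for TLE2 included the labelled peak of TLE6 and a peak 102 bp from the start of ENSG00000288906. Most peaks of the TLE3 locus lay farther away.

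Over a distance of 600 kb on each side of the 5′ end, 37 peaks lay upstream of TLE3, all of them unlabelled, with a median height of 34 and a maximum of 72. Upstream of TLE4 there was 1, of height 24, and upstream of TLE1 none. TLE2 had 21 upstream peaks, of which 12 were unlabelled with a median of 26.5 and 9 carried the symbols of other genes. TLE5 also had 21, with the same 12 unlabelled peaks, because both genes look onto the same gene-dense stretch of chromosome 19. Downstream, 13 peaks were counted for TLE3 and 4 for TLE4 (the labelled peak of each included), 0 for TLE1, 20 for TLE2 and 19 for TLE5. Of the downstream peaks of TLE2 and TLE5, 8 and 7 carried the symbols of other genes.

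**Figure D1:**
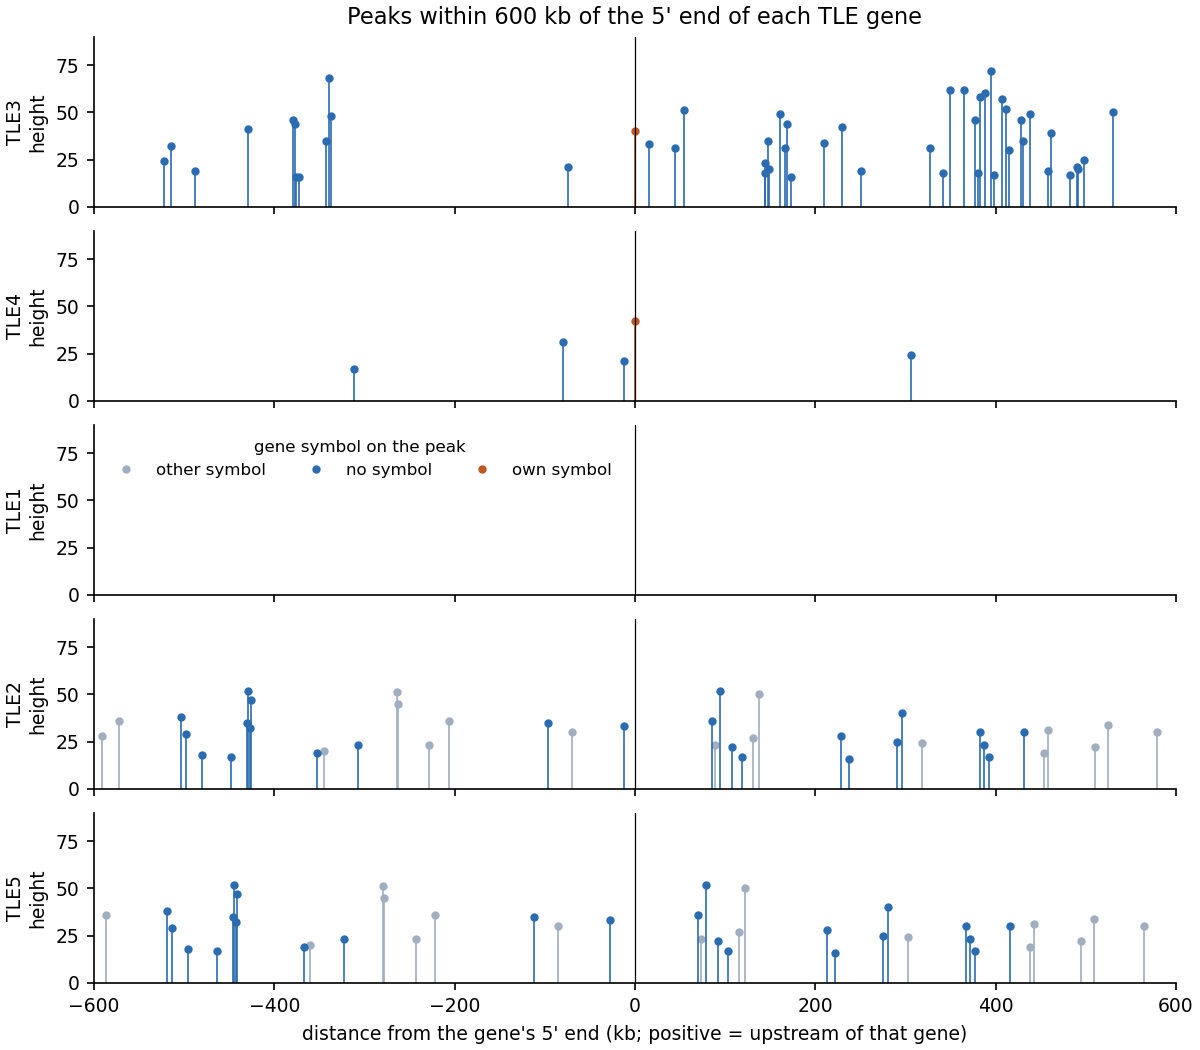
Peak height (largest signal, y axis) against the distance from the 5′ end of each of 5 TLE genes in kb (x axis, positive values upstream of that gene), with 1 line per peak coloured by the symbol it carried. TLE3 had 37 unlabelled upstream peaks and TLE4 had 1, the panel of TLE1 holds no peak, and the panels of TLE2 and TLE5 show largely the same peaks.

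The stretches without protein-coding genes around the TLE genes were compared with all 1587 gaps of 200 kb or more between protein-coding genes. Most of these gaps, 65.1%, held no peak. The gap of 556.4 kb between TLE3 and UACA, which encodes a protein with coiled-coil domains and ankyrin repeats, held 37 peaks, the most of any gap. With 6.65 peaks per 100 kb it ranked 2 in density, and with a total signal of 891 per kb it ranked 1. On the other side, the gap of 591.6 kb between TLE3 and the ribosomal protein gene RPLP1 held 15 peaks, 2 of them labelled, or 2.54 per 100 kb, and ranked 13 by number. The gaps beside the chromosome 9 paralogs held at most 1 peak each. There was 1 peak of height 24 in the 1241.7 kb between PSAT1, a serine synthesis gene, and TLE4. There was also 1, of height 17, in the 1856.8 kb between TLE4 and TLE1. The 238.9 kb between TLE1 and SPATA31D4 held 0 peaks.

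Within the window, peaks reached from 70010939 to 70921266 and covered 51965 bp, or 5.20% of the 1 Mb. Upstream of the TLE3 5′ end lay 37 unlabelled peaks in 609.5 kb with 78.2% of the total signal of the window. Downstream lay 8 in 390.5 kb with 11.5%. The TLE3 promoter peak held the remaining 10.3% of the signal and 12.7% of the covered bases. The window borders did not cut through a run of peaks on either side. On the right the next peak, labelled UACA, started at 71054852 with a height of 17. On the left the last peak before the window, from 69958900 to 69961989, was unlabelled with a height of 41. The neighbouring windows held 9 unlabelled peaks from 69000001 to 70000000 and 3 from 71000001 to 72000000, with median heights of 29 and 18.

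Few genes were annotated in this stretch. The window overlapped 2 protein-coding genes, TLE3 and UACA, 10 long noncoding RNA genes, 3 miRNA genes, 2 pseudogenes and an snRNA gene. In the 35 windows of 1 Mb with 20 or more unlabelled peaks, the median was 16 protein-coding genes and the lowest number was 1. The apexes of the 45 unlabelled peaks were intergenic in 35 cases, in introns of noncoding RNA genes in 9 and in an exon in 1. DRAIC, a long noncoding RNA gene (ENSG00000245750, 69755260 to 70135459), contained 7 of the apexes, and LINC02205, LINC02204, ENSG00000287741 and ENSG00000289525 contained 1 each, the last one inside DRAIC. None of the 45 lay in UACA or at MIR629, a miRNA gene inside TLE3. Only 2 of the 45 apexes lay within 1 kb of any annotated start, at 78 bp from that of ENSG00000289525 and at 548 bp from that of ENSG00000287741. The nearest protein-coding start was that of UACA for 23 peaks and that of TLE3 for 18, so the name of the locus gives its place and not an assigned target.

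**Figure D2:**
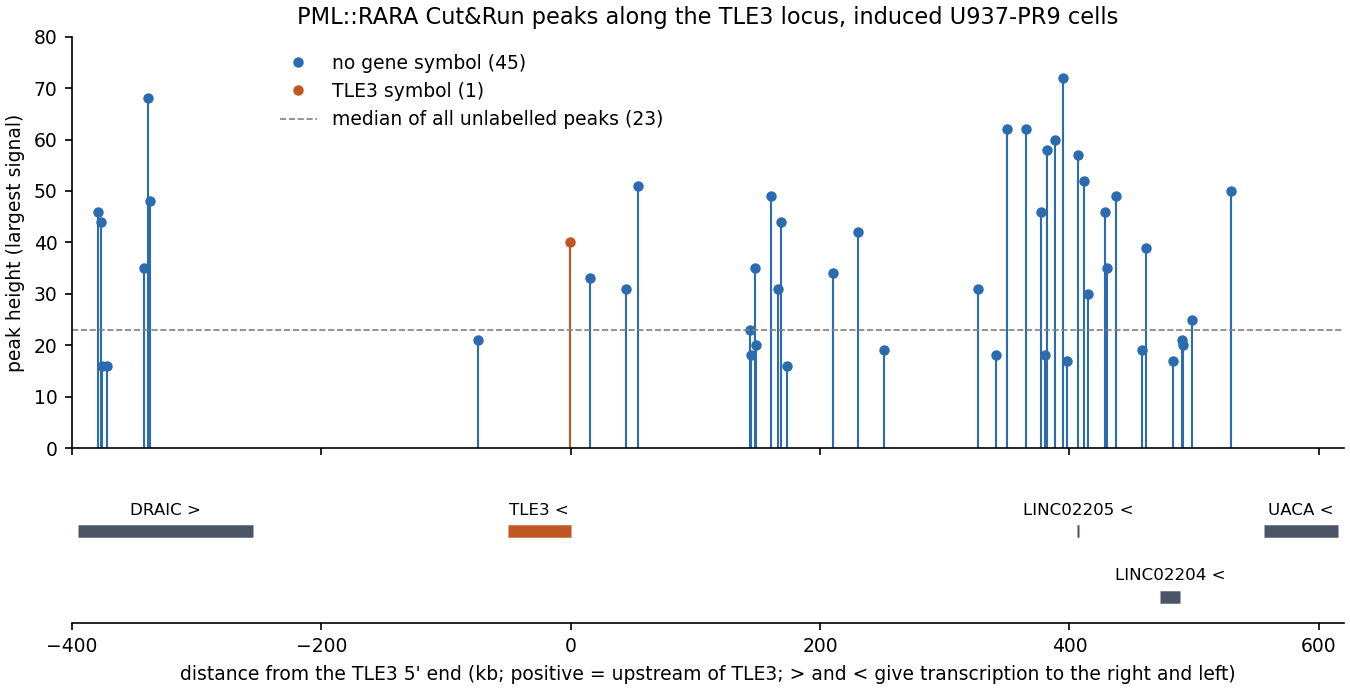
Height of the 46 peaks of the window (largest signal, y axis) against their distance from the TLE3 5′ end (kb, x axis, positive values upstream), with selected genes below. The TLE3 promoter peak (orange) has a height of 40, and the 37 unlabelled peaks to its right fall into groups, with the highest, of 72, at 394.8 kb.

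Neighbouring peaks of the window lay close together. The median distance between the centres of successive peaks was 7383 bp (quartiles 3619 and 19658 bp, n = 45 distances), beside a median of 48780 bp for all unlabelled peaks of the list and 33970 bp for the whole list. The smallest was 504 bp and the largest 262776 bp. Of the 45 distances, 2 were under 1 kb, 17 under 5 kb and 26 under 10 kb, and 4 were over 50 kb. The largest empty stretch, of 261945 bp, ran from 70053642 to 70315588 on the downstream side and crossed the end of DRAIC. The next peak-free stretches were 89075 bp between 70444871 and 70533947, 75375 bp before 70717299, and 71609 bp that contained most of the TLE3 gene. In classes of 100 kb, those from 70100001 to 70200000 and from 70200001 to 70300000 held no peak.

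Peaks were joined into runs where the gap between them was at most 10 kb. This gave 19 runs, of which 9 were single peaks, and 37 of the 46 peaks stood in runs of 2 or more. On the downstream side, inside DRAIC, a run of 4 peaks from 70010939 to 70018881 had heights of 46, 44, 16 and 16. A run of 3 from 70047649 to 70053642 had heights of 35, 68 and 48. The first of these runs mixed high and low peaks, while all peaks of the second reached at least the window median of 35. A single peak of height 21 at 70315588 followed across the empty stretch.

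Going upstream from TLE3, the first peak, 15.3 kb from the 5′ end, had a height of 33. A pair at 44.2 and 54.1 kb followed with heights of 31 and 51. The distances are those of the apexes. A run of 4 from 70533947 to 70539574 had heights of 23, 18, 35 and 20, and a run of 4 from 70549933 to 70564303 had 49, 31, 44 and 16. The gap between these runs, of 10358 bp, was only just over the limit. Lone peaks at 210.2, 230.1, 251.0 and 326.9 kb had heights of 34, 42, 19 and 31. Next came heights of 18 and 62 in a pair from 70731623 to 70741291 and of 62 in a single peak from 70755161 to 70756274.

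The longest run followed at 376.1 to 414.9 kb upstream of TLE3. It reached from 70766584 to 70805419 and held 9 peaks over 38.8 kb, of which 37.8% was covered by peaks. In order of position the heights were 46, 18, 58, 60, 72, 17, 57, 52 and 30. High peaks thus stood among lower ones, and 6 of the 9 exceeded 41, the 90th percentile of the unlabelled peaks. The widest 4 of these peaks measured 2841, 2447, 2358 and 2164 bp. The widest of them, from 70795705 to 70798545, spanned the whole of LINC02205 (70796246 to 70798267), including its start. Its apex lay in an intron of that gene, 1128 bp from the nearest annotated start. The run held 33.7% of the total signal of the window, compared with 10.3% in the TLE3 promoter peak. Beyond it, 3 peaks from 70818526 to 70828723 had heights of 46, 35 and 49, 2 from 70847981 to 70852050 had 19 and 39, and 4 from 70873390 to 70889091 had 17, 21, 20 and 25. The last peak before UACA, from 70919756 to 70921266, reached 50.

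**Figure D3:**
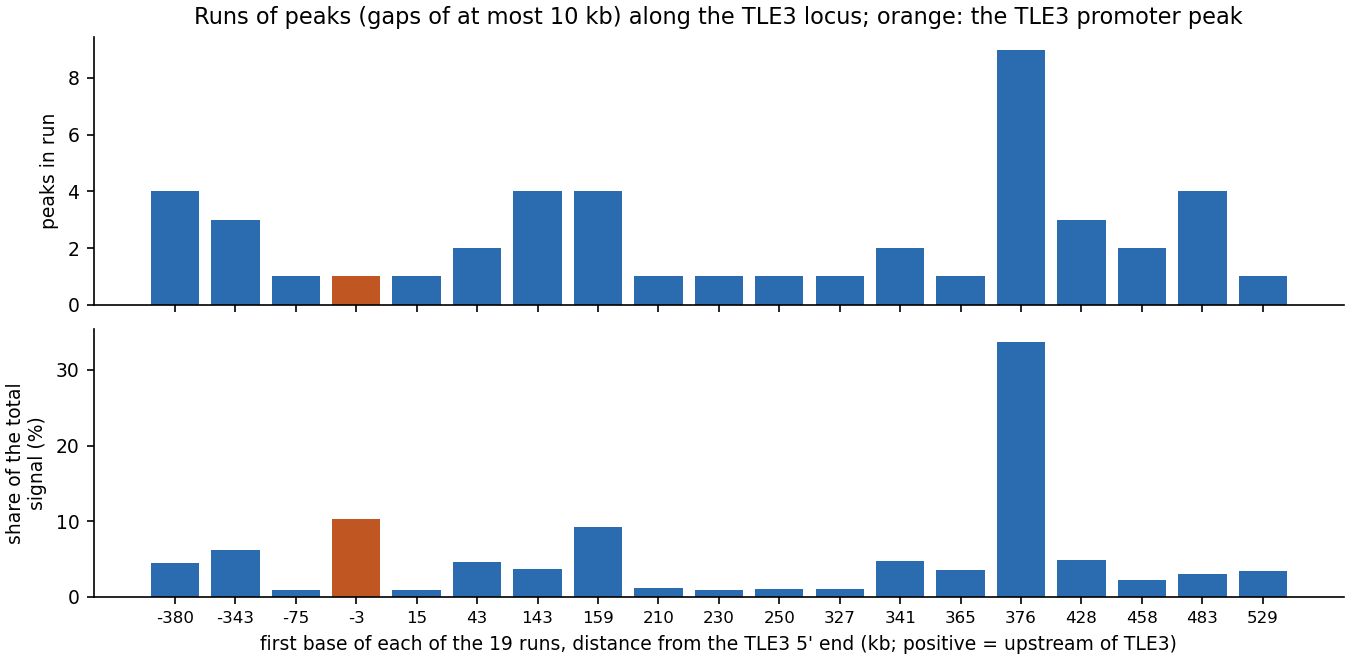
Number of peaks (upper bars) and share of the total signal of the window in percent (lower bars) for each of the 19 runs, in order of their first base relative to the TLE3 5′ end (kb, x axis). The run that starts 376.1 kb upstream has 9 peaks and 33.7% of the signal, and the TLE3 promoter peak (orange) is a single peak with 10.3%.

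When all unlabelled peaks of the list were joined in the same way, 6122 runs resulted and 77.4% of them were single peaks. The run upstream of TLE3 ranked 2 by number of peaks and by span and 1 by total signal, with 214004. The only run with 10 peaks lay on chromosome 20 from 23099990 to 23144190 and had a total signal of 144516 and a median height of 36.5, compared with 52 for the run near TLE3. Runs of 5 or more unlabelled peaks numbered 63, and 366 peaks, or 4.44% of the unlabelled peaks, stood in them. In the window these were the 9 peaks of the longest run. The rank depended on the limit for a gap. With at most 5 kb the far upstream run split into 3 runs of 3 peaks each, of which the highest in total signal, from 70778410 to 70789201 with 89756, ranked 6 by signal. The longest runs of the window were then 3 others of 4 peaks, which ranked 24 by number. With at most 25 kb the longest run had 22 peaks, from 70717299 to 70889091, and ranked 1 by number and by signal.

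By distance from TLE3 in classes of 100 kb, the signal was concentrated in the far upstream part. The first 100 kb held 3 peaks with a median height of 33, the next 8 with a median of 27, and the next 3 with a median of 34. From 300 to 400 kb there were 10 peaks with a median height of 52 and 40.7% of the upstream signal. From 400 to 500 kb there were 12 with a median of 32.5 and 27.3% of the signal, and the last class held 1 peak of height 50. The number of peaks in the classes and their median height thus did not peak in the same class.

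High peaks made up a larger share of the unlabelled peaks of the window than of those elsewhere. Their median height was 35 (quartiles 20 and 49, range 16 to 72, n = 45), beside a median of 23 (quartiles 19 and 31, range 15 to 87) in the other 8197 unlabelled peaks. A height above 41 was found in 19 of the 45 (42.2%), beside 9.73% of all unlabelled peaks. A height of 60 or more was found in 5 (11.1%), beside 0.878% of the others. At the low end the window resembled the rest more closely, with 12 peaks (26.7%) at 20 or below compared with 34.7%. The middle class from 21 to 40 was the smaller one here, with 14 peaks (31.1%) compared with 54.5%. On the upstream side the median was 34 and on the downstream side 39.5, with ranges of 16 to 72 and 16 to 68 that overlapped nearly fully.

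Peaks with and without close neighbours had nearly the same median height. The 37 peaks with another peak within 10 kb had a median height of 35, and the 9 without had 34. Height rose with width, with a Spearman's rho of 0.642 over the 45 unlabelled peaks and 0.482 over all 8243 unlabelled peaks, given as a description because height and width come from the same signal. The rho of height with GC content was 0.104 over the 45 and 0.180 over all. Width was larger than elsewhere too, with a median of 808 bp compared with 632 bp. In 4 classes of width, divided at the quartiles of all unlabelled peaks, the median height of the window exceeded that of the others by 18.5 in the widest class (49.5 and 31, with 18 and 2043 peaks). In the other classes, from narrow to wide, the differences were 6, -1 and 6 with 5, 9 and 13 window peaks. The difference in median height was thus largest among the peaks wider than 939.5 bp.

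**Figure D4:**
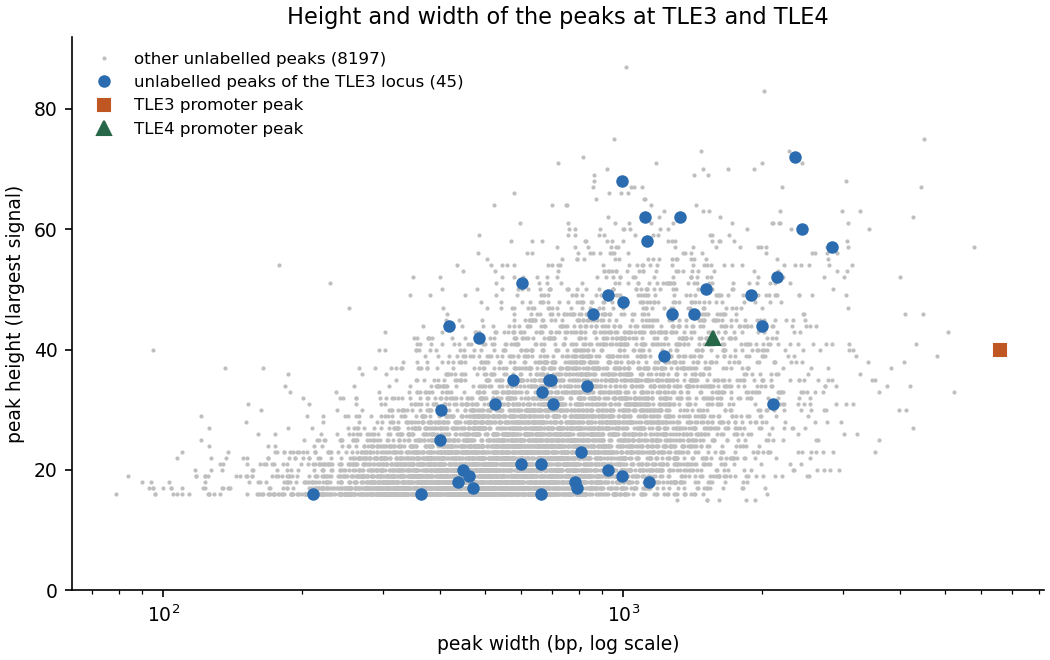
Peak height (largest signal, y axis) against peak width (bp, log scale, x axis) for the 45 unlabelled peaks of the window (blue), the promoter peaks of TLE3 (square) and TLE4 (triangle) and the other 8197 unlabelled peaks (grey). The promoter peaks have similar heights of 40 and 42 at widths of 6581 and 1569 bp, and the blue points on the right lie mostly in the upper part of the grey cloud.

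The median base composition of the window peaks was like that of other unlabelled peaks, but the upper ends differed. In the 401 bp centred on the apex the median GC content was 52.1%, beside 52.9%, and the median number of CpG was 6, beside 7. The upper quartile of GC content was 54.9%, beside 58.1%, and the highest value 64.3%, beside 84.5%. Among the other unlabelled peaks the number of CpG ranged from 0 to 79. In the window it ranged from 0 to 24 and was highest in a single peak far from any known promoter. The peak at 349.9 kb, of height 62, had 24 CpG and a GC content of 61.1%, although the nearest annotated start lay 57808 bp away. Its sequence is the third of those given around the apexes.

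Motif words were counted in the same 401 bp and, for comparison, in windows of equal size 2 kb towards lower coordinates. Some of the shifted windows of the locus overlapped a neighbouring peak, so they were not all free of peaks. The ETS word, a core sequence of factors such as SPI1, was present in 22 of the 45 peaks (48.9%), beside 47.1% of all 8243 unlabelled peaks and 15.6% of the shifted windows of the locus. The RUNX word was present in 25 (55.6%), beside 40.3% and 31.1%. The AP-1 word, bound by FOS and JUN dimers, was present in 16 (35.6%), beside 26.7% and 11.1%. The shares of these 3 words were higher at the apexes than 2 kb away, and for ETS the share was near that of the unlabelled peaks as a whole.

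The retinoid receptor word, counted only as AGGTCA or GGGTCA, was found in 18 of the 45 (40%), beside 44.5% of all unlabelled peaks and 35.6% of the shifted windows. These are forms of the word bound by the RARA part of the fusion. Other forms were not searched, so the counts do not show that such sites were absent. Among all unlabelled peaks it was also only slightly more frequent than in their shifted windows (43.0%). RARA and its partner RXR bind pairs of such words, but orientations and spacings were not told apart in the count. Pairs in any orientation, at most 8 bases apart, were found in 0 of the 45, beside 1.26% of all unlabelled peaks. With 200 bp on each side of the peak centre in place of the apex, they were found in 4.44% of the 45. No share of all unlabelled peaks is given for windows at the peak centre, so this value has no comparison here. The difference between 0 of the 45 and 1.26% was not tested, and 45 peaks are few for so rare a match. The C/EBP word was present in 6 (13.3%, beside 22.6%), the SP word in 3 (6.67%, beside 24.9%) and the GATA word in 4 (8.89%, beside 8.37%). In the shifted windows of the locus the shares of these words were 15.6, 6.67 and 8.89%, so none was higher at the apexes. The SP word was most frequent at labelled peaks, with 76.2%. A word match is a description of the sequence and not a binding site.

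**Figure D5:**
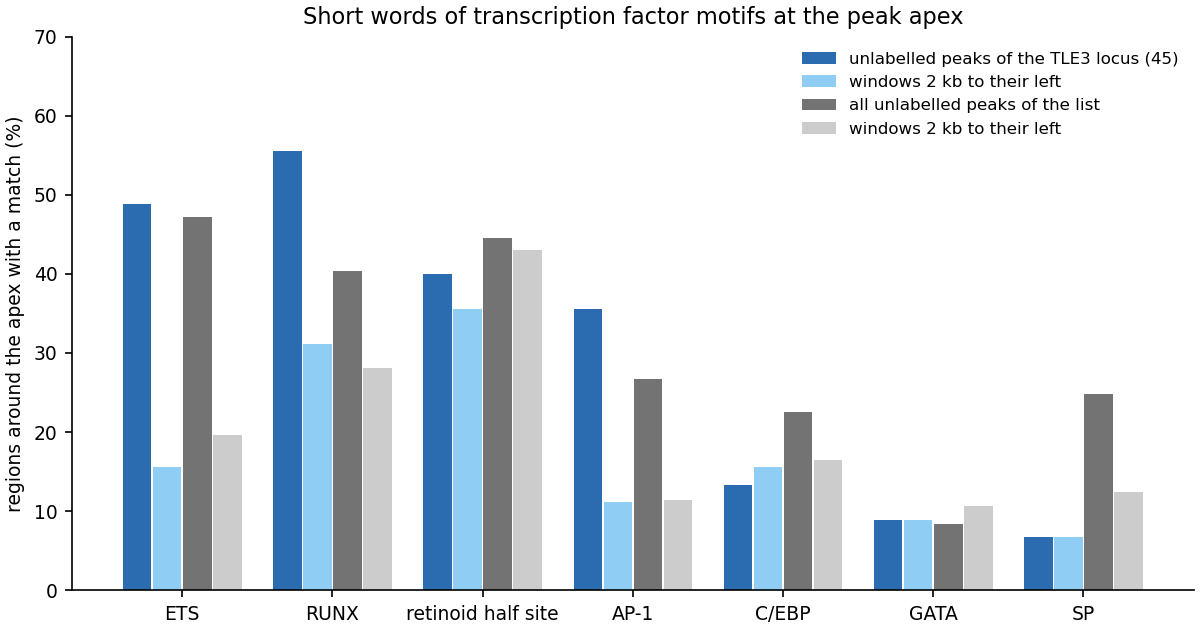
Share of regions of 401 bp with at least 1 match to a motif word (%, y axis) for 7 kinds of word (x axis), at the 45 unlabelled peaks of the window, at all 8243 unlabelled peaks of the list, and in windows 2 kb to the left of each. At the window peaks the ETS, RUNX and AP-1 words have shares of 48.9, 55.6 and 35.6%, beside 15.6, 31.1 and 11.1% in the shifted windows.

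Combinations of the ETS, RUNX and AP-1 words varied between the peaks. At least 2 of these 3 words occurred in 20 of the 45 (44.4%), beside 32.1% of all unlabelled peaks, and all 3 in 5 (11.1%), beside 4.66%. None of them occurred in 7 (15.6%), beside 22.6%. In the longest run the ETS word was found in 2 of 9 peaks, the RUNX word in 5 and the AP-1 word in 4. No peak of this run had all 3. Over all 45 window peaks the words were found in 22, 25 and 16 (48.9, 55.6 and 35.6%). Over all unlabelled peaks the shares were 47.1, 40.3 and 26.7%. Among the 10 highest peaks of the window the ETS word was found in 5, the RUNX word in 6 and the AP-1 word in 5. In the other 35 the counts were 17, 19 and 11.

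The genes through which TLE proteins act were examined last. Of 28 partner genes, 11 (39.3%) had a peak under their own symbol, beside 30.0% of all protein-coding genes. All 4 genes of the RUNX group were among them. RUNX1 had 3 labelled peaks, of which the highest reached 74, and 14 apexes within the gene. RUNX3 also had 3, the highest of 43, and RUNX2 and CBFB, the common cofactor of the RUNX proteins, had 1 each, of heights 19 and 20. Of the 10 HES and HEY repressors of the Notch pathway, only HES1 had a label, on 2 peaks, the higher of 42. Of the TCF and LEF factors that bring TLE proteins to Wnt target genes, TCF7L2 had 1 labelled peak, of height 19, and TCF7, TCF7L1 and LEF1 had none under their symbols, although an apex of height 17 lay within TCF7L1. PRDM1 and HHEX, transcriptional repressors that act in blood cell development, had 1 each, of heights 33 and 29, while PAX5, SIX3 and GSC had none. Both deacetylase genes, HDAC1 and HDAC2, had a labelled peak, of heights 34 and 24. The other noncanonical paralog, TLE7, had none. With an apex within 1 kb of an own start site counted in place of the symbol, the number was 12 of 28. HES3 was the added gene. The share of all protein-coding genes by this count was not computed, so the 12 have no comparison.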

How the data were processed

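Cut&Run was performed on U937-PR9 cells in 4 groups of 2 replicates, and 1 list, that of induced cells and the antibody against the fusion, was used. The authors processed the reads with Trimmomatic for adapters and quality and with Bowtie2 for alignment to hg19. They then took out PCR duplicates (SAMtools) and reads in blacklisted regions (Bedtools). Peak calling was done with SEACR, with the paired control as background and the norm union setting, and peaks had to be reproducible between 2 replicates (IDR threshold 0.05). The deposited values are a total signal per peak and a score per peak, which is the largest signal and is called the height. Both readings differ from what the names say and were inferred from the values. With them the total never reached height times width in any of the 15412 peaks. Whether the signal was normalised, or belongs to 1 replicate or to pooled reads, is not stated. The gene symbols are the authors', given where the apex met a promoter of the UCSC known genes. In 34 peaks without an apex end the apex start was used. Depth is unknown, so values have no counting interval.

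Genes and start sites were taken from GENCODE release 44 mapped to GRCh37. Bases were read from the GRCh37 genome, and promoter entries from RefSeq (GRCh38.p14). Words were searched within 200 bp of the apex. The members and gene lists were chosen with earlier results of these data known, and no test was run. Genes named are the TLE genes, genes overlapping the window, the neighbouring protein-coding genes and the 28 partners, of which 1 is not reported here by name. Peaks named are the 10 highest, the 5 widest, the longest run and the labelled ones, and other peaks were named for their place in the locus after their values were seen. Alternatives changed the merging of peaks, the gap of a run, the height, width and distance limits and the motif window. The counting steps were tested on simulated data. Python 3.11.15, numpy 2.4.6, pandas 2.3.3, scipy 1.17.1, pysam 0.24.0 and matplotlib 3.10.9 were used.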

Additional observations from a re-analysis of the deposited data

How the results depend on the processing

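No paired analysis was possible because each peak has 1 value and none for a single replicate, which also means that leaving out a replicate could not be tried. Of 45 alternative values, 32 stayed within 1.5 times of the reported value or, for motif shares, within its binomial interval (Wilson). Of 46 window peaks, 23 were at or above the median width of the list. The median spacing of 7383 bp became 12374.5 bp when lower peaks than the list median were dropped. With gaps of at most 25 kb the 19 runs became 9, and the rank of the longest run moved from 2 to 1, or to 24 with gaps of at most 5 kb. Mean signal over the width, another measure than height, had a median of 10.2. Counted in the gene body only, TLE2 had 1 peak, TLE3 had 1 and TLE5 had 0. Within 100 kb TLE2 and TLE5 had 6 each. These changes follow from the construction of the alternatives. With 100 bp on each side of the apex the share of window peaks with the retinoid receptor word was 22.2% and that with the SP word 2.22%, and the GATA share fell from 8.89 to 4.44%, within its interval. Pairs of retinoid receptor words rose from 0 to 4.44% with windows at the peak centre. The unknown depth limits every statement on absent peaks, TLE1 included.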

Other observations

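Other long gaps between protein-coding genes also held many unlabelled peaks. The gap between IRF2BP2 and TOMM20 on chromosome 1 (526.7 kb) held 26 peaks with a median height of 28, and that between HAAO and ZFP36L2 on chromosome 2 (429.8 kb) held 21, also with a median of 28. Between SERTAD2 and SLC1A4 on chromosome 2 there were 16 peaks in 237.5 kb, or 6.74 per 100 kb, the only gap denser than that between TLE3 and UACA. The gap between CD93 and NXT1 on chromosome 20 came closest in signal, with 880 per kb from 13 peaks of median height 42, and it contained the run of 10 unlabelled peaks.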
